A study of Mus musculus with 8 samples.

Results

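Cytokine receptor genes of mouse lymphocytes were compared between B cells and T cells by their DNA methylation. The 9 genes were Il7r, Il2rb, Il4ra, Il21r, Il6ra, Il6st, Il12rb2, Il18r1 and Ifngr1, of 21596 protein-coding genes in the files. Each was taken as its gene body with 10 kb added on each side (GENCODE M21 on GRCm38), and a CpG was used where all 4 files covered it with 5 or more reads. The regions held 477 windows of 1 kb with at least 3 such CpGs, of 2018320 windows genome-wide. Levels came from whole-genome bisulfite sequencing, in which unmethylated cytosines are converted and the methylation level of a CpG is the share of unconverted reads. 5-methylcytosine and 5-hydroxymethylcytosine are read alike.

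The cells were spleen lymphocytes of C57BL/6J mice, an inbred wild-type strain, aged 6 to 8 weeks and pooled over animals. B cells were resting CD43- B cells. T cells were naive CD4+CD62L+ T cells, sorted as CD44 low and CD25 negative. The 8 samples formed 4 groups of 2 by sex and cell type, with 1 file per group. Whether a file holds both samples of its group or only 1 is not stated, so the spread between pools of a group could not be measured and every B and T difference was seen once in females and once in males. Mean coverage of autosomal CpGs was 14.6 to 17.7 reads per file, and overall methylation was 79.5% to 80.7%. The cell labels held at marker genes. The promoters of the B cell markers Cd79a, Cd79b and Ms4a1 were called lower in B cells, and those of all 4 T cell markers (Cd3d, Cd3e, Cd3g, Cd4) were called higher in B cells. Both CD8 markers were also called higher in B cells (Cd8a 89.5% and 90.3% in B cells, 67% and 70.9% in T cells; Cd8b1 90.0% and 89.7% in B cells, 40.6% and 38.5% in T cells), although CD8a-positive cells had been depleted from the T cells. None of the 8 promoters of NK, regulatory T, myeloid and red cell markers was called, and that of Lyz2 lay under the size threshold, at -19.3 points (adjusted p = 0.0477 by the same model). By 1 kb windows, 5 of 53 were called at the NK markers (all in Klrb1c, lower in B cells), 17 of 204 at the regulatory T markers (of which 7 of 40 in Foxp3, all higher in B cells), 3 of 75 at the myeloid and none of 52 at the red cell markers, and 19 of 58 at the CD8 markers, where 2.78% of windows in protein-coding genes and their 10 kb margins were. The part of such cells in the results was not tested.

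Cytokine receptors are assembled from chains that bind the ligand and chains that carry the signal. Most of the 9 chains belong to families without kinase activity of their own, which signal through JAK kinases and STAT factors, whereas the IL-18 receptor signals through MyD88. Naive T cells depend on IL-7 for survival, and mature B cells have little IL-7 receptor. Methylation of promoters and of elements within introns is commonly low where a gene is in use in a lineage, and RNA was not among the files used here.

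The sequence at the leading window of each of the 9 genes is shown, so that the CpGs behind the values can be seen. Each is the run of 200 bases, on the reference + strand of GRCm38, that held most CpGs outside annotated repeats in that window. The leading window was the called window that ranked highest when each window was scored by whichever of its sex-specific differences was smaller. Capitals mark the CpGs that were measured. Summed over their marked CpGs, the sequences were less methylated in T cells in both sexes except those of Il21r and Il4ra, printed last, which were less methylated in B cells. Single CpGs could differ from the sum, as did the one at base 38 of Il4ra (65% and 90% in B cells, 75% and 71.4% in T cells) and the one at base 131 of Il2rb (100% and 87.5% in B cells, 96.3% and 95.2% in T cells).
Il7r, chr15:9525069-9525268, + strand: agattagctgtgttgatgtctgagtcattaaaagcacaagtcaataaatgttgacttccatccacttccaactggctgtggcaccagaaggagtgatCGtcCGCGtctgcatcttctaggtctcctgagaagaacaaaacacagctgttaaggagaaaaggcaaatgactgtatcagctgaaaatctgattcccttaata
Il12rb2, chr6:67302587-67302786, + strand: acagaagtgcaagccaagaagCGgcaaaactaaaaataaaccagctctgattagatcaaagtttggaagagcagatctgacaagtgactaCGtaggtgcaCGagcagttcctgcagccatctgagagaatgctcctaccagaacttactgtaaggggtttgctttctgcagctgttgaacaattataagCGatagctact
Ifngr1, chr10:19598108-19598307, + strand: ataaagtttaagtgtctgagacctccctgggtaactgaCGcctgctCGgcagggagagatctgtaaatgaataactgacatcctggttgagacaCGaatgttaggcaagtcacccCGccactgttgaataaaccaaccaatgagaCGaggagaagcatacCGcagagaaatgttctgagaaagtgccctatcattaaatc
Il6st, chr13:112467676-112467875, + strand: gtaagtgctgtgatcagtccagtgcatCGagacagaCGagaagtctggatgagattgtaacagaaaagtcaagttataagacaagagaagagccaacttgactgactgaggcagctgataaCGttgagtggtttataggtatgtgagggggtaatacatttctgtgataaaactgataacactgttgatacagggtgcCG
Il18r1, chr1:40477073-40477272, + strand: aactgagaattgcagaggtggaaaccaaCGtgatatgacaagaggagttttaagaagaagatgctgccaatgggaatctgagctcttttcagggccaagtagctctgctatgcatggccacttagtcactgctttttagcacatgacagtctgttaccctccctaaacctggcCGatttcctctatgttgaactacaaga
Il6ra, chr3:89875142-89875341, + strand: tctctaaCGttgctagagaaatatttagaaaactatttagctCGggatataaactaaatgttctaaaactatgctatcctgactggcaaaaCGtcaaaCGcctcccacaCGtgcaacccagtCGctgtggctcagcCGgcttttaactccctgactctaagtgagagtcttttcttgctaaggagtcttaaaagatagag
Il2rb, chr15:78502607-78502806, + strand: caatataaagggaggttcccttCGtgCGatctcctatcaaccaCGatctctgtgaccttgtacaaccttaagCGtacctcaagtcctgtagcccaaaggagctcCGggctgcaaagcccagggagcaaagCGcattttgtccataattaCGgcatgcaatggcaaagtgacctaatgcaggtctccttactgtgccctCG
Il21r, chr7:125599801-125600000, + strand: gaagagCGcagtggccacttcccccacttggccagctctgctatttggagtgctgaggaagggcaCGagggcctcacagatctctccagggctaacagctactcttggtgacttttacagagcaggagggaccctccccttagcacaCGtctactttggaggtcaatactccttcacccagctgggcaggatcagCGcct
Il4ra, chr7:125575671-125575870, + strand: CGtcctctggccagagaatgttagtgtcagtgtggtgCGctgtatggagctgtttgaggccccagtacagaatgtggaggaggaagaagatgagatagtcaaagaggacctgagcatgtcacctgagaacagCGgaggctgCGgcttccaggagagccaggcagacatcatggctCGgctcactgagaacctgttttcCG
The 4 CpGs of the Il12rb2 sequence, in intron 12, were at 90.9% (female) and 92.3% (male) in B cells. In T cells none of 59 and 75 counts, summed over the CpGs, was methylated, which would allow up to 5.08% and 4%. The 6 CpGs of the Ifngr1 sequence, in intron 2, were at 89.0% and 70.1% in B cells. In T cells they were at 1.99% and 0%, the latter among 111 such counts, which would allow up to 2.70%. A read over several CpGs is counted at each of them. These limits therefore hold only if the counts were separate reads, and are otherwise too low. The 4 CpGs of the Il21r sequence, upstream of the gene, showed the opposite order, with 1.56% and 2.30% in B cells and 79.2% and 84.5% in T cells. The middle of the Il7r sequence, where its marked CpGs are, lies in coding exon 2 of 8. The Il4ra sequence lies in the coding part of exon 11, the last of that transcript.

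At the gene starts, methylation of most members was low in both lineages. Promoters were defined as the gene start with 1 kb to either side, and the reads of each were fitted by quasi-binomial logistic regression on cell type and sex, with Benjamini-Hochberg adjustment over 21082 promoters. To be called, a promoter needed an adjusted p below 0.05 together with at least 20 percentage points between the lineages on average. Il2rb was the only promoter of the 9 that was called, where 0.896% of all promoters were.

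**Figure D1:**
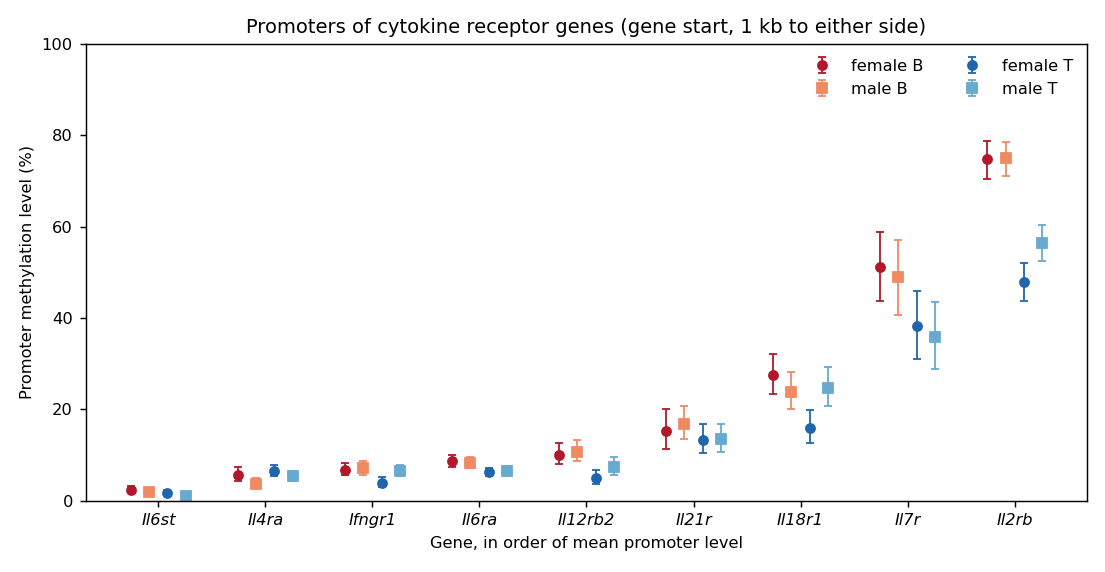
Promoter methylation level (%) of the 9 genes in the 4 files, in order of the mean level, with 95% Wilson intervals for counting error. The intervals treat the counts at each CpG as separate reads and are otherwise too narrow. The 2 B cell files of Il2rb (74.8% and 75.0%) lie above its T cell files (47.9% and 56.5%), and 6 genes lie under 17% in all files.

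Il2rb encodes the beta chain shared by the receptors for IL-2 and IL-15, which signals in both. Its promoter (chr15:78494271-78496271, 32 CpGs) was at 74.8% (95% Wilson interval 70.5 to 78.7) in female B cells and 75.0% in male B cells, and at 47.9% in female and 56.5% (52.5 to 60.4) in male T cells. The mean difference was 22.8 points (adjusted p = 0.00433). All 4 single-file omissions lost the call, with an adjusted p of 0.28 without the female B, 0.213 without the female T, 0.324 without the male B and 0.0985 without the male T cell file. It was also lost with limma (adjusted p = 0.0765), without the sex term (adjusted p = 0.055) and with CpGs of 10 or more reads, where the difference was 19.6 points. Within 500 bp of the start the levels were 65.1% and 64.3% in B cells and 30.1% and 40.9% in T cells (29.2 points, adjusted p = 0.00282).

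Il7r, the ligand-binding chain for IL-7, had an intermediate promoter with 11 CpGs. It was at 51.2% in female and 48.9% in male B cells and at 38.3% and 35.8% in T cells. The B and T files did not overlap, but the difference of 13.0 points was not called (adjusted p = 0.307). Il18r1, the ligand-binding chain for IL-18, was at 27.5% and 23.9% in B cells and at 16.0% and 24.7% in T cells, so its files overlapped. Il21r, the IL-21 receptor chain, was at 15.2% and 16.9% in B cells and at 13.3% and 13.5% in T cells. Il12rb2, the IL-12 receptor chain that is used by T helper 1 cells, was at 10.1% and 10.7% in B cells and at 5.08% and 7.41% in T cells. The differences of these 3 promoters were 5.36, 2.68 and 4.16 points, and none was called (adjusted p = 0.569, 0.706 and 0.213 by the same model).

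The promoters of Il6ra, Ifngr1, Il4ra and Il6st were under 9% in every file. Il6ra, the IL-6-binding chain, was at 8.69% and 8.28% in B cells and at 6.24% and 6.58% in T cells. Ifngr1, the ligand-binding chain for interferon gamma, was at 6.84% and 7.07% in B cells and at 3.99% and 6.51% in T cells. Il4ra, shared by the receptors for IL-4 and IL-13, was at 5.62% and 3.78% in B cells and at 6.59% and 5.35% in T cells. Il6st, which encodes gp130, the signalling chain of the IL-6 family, was at 2.44% and 1.83% in B cells and at 1.81% and 1.05% in T cells. In the order of mean promoter levels, from Il6st at the bottom to Il2rb at the top, Il4ra, Ifngr1, Il6ra and Il12rb2 overlapped with their neighbours in their ranges over files, as did Il21r with Il18r1 and Il7r with Il2rb. The median difference over the 9 promoters was 2.68 points, against 0.147 over all promoters.

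Alternative transcript starts of Il6st differed from its upstream start. Of 35 annotated transcript starts of the 9 genes, 6 were called, where 1.59% of all transcript starts were, and they belonged to Il2rb (2 starts) and Il6st (4 starts). The start of Il6st-205, 3523 bp inside the gene, was at 88.9% in female and 86.5% in male B cells and at 28.9% and 29.6% in T cells, a difference of 58.5 points (adjusted p = 1.15e-07). The start of Il6st-201, the transcript with the longest coding sequence, lies 10938 bp inside the gene and was at 82.4% in both B cell files, 52.7% in female and 50.8% in male T cells (30.7 points, adjusted p = 1.91e-05). The upstream starts of Il6st stayed under 3% in all files. Neighbouring starts share most of their CpGs and are not separate measurements.

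Over the whole regions, gene starts included, the lineages differed at many positions. Of the 477 windows, 75 (15.7%) were called, where 2.08% of all windows, 2.78% of windows within protein-coding genes and their 10 kb margins, and 2.86% of intronic windows were. The number higher in B cells was 66 (13.8% of the 477, 1.17% of all windows), and 9 were lower in B cells (1.89% against 0.914%). Every member held at least 4 called windows, whereas 47.6% of protein-coding genes held at least 1 and 14.0% held 4 or more. Among the 7042 genes with as many windows as the members, 16.1% held 4 or more. The cut of 4 is the lowest count of a member, so its choice fixed that all members reach it. The median was 7 called windows in the members and 1 in those 7042 genes. The B and T files did not overlap at any of the 75, which the call nearly fixes, since they did not at 99.9% of all called windows. Within a cell type the female and male files differed at the 75 windows by a median of 3.49 points (B) and 3.39 points (T). The highest adjusted p among them was 0.0102. The p-values of windows rest on a dispersion shared between windows, so the very small ones overstate certainty at any 1 window.

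**Figure D2:**
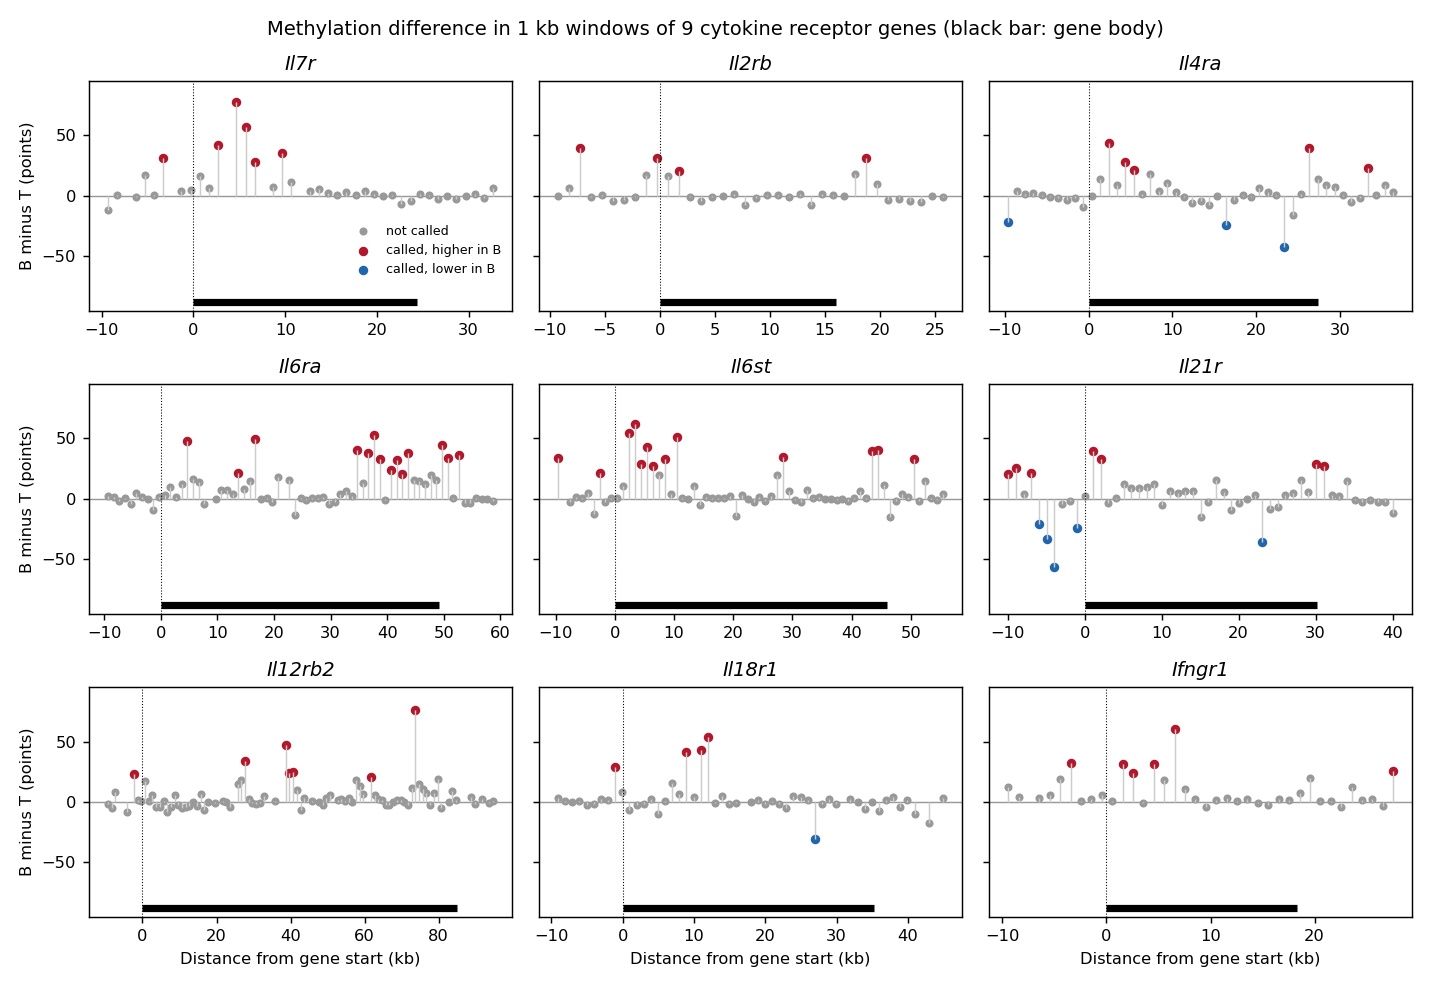
Mean difference in methylation level (B minus T, percentage points) of each 1 kb window against its distance from the gene start (kb, positive in the direction of transcription), with the gene body as a black bar. Red windows were called higher in B cells (66) and blue windows lower in B cells (9), the latter in Il4ra, Il21r and Il18r1; grey windows were not called.

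Windows were classed by the position of their midpoint alone. Of 250 intronic windows, 39 were called (35 higher in B cells), as were 6 of 42 exonic windows (all higher in B cells). So were 14 of 74 upstream windows (10 higher) and 8 of 82 downstream windows (all higher). A window classed as intronic can hold exonic CpGs. The leading Il7r window (exon 2) and the leading Il4ra window lower in B cells (exon 11) did. Windows within 1 kb of any annotated start gave 8 calls of 29 (27.6%, with 7 higher and 1 lower), of which 4 were in Il6st, 2 in Il2rb and 2 in Il21r. The 1 lower in B cells was that of Il21r at chr7:125602001-125603000, with 37.9% and 33.0% in B cells and 62.0% and 56.7% in T cells. A share over all genes was taken for intronic windows but not for the other classes. Adjacent called windows of the same direction formed 52 elements, and 14 of these spanned 2 or more windows. Windows called higher in B cells had medians of 81.0% and 80.1% in B cells and 41.5% and 42.0% in T cells, against 87.0% and 86.8% and 49.5% and 49.4% over all windows called in that direction. In 11 of the 66 (16.7%) both T cell files were at or under 20%, as in 10.8% of all such windows, and in 32 (48.5%) both B cell files were at or over 80%, as in 62.0%. Whether an intermediate level stands for part of the cells or part of the alleles cannot be told apart in these bulk populations. Annotated repeats made up a median of 19.8% of a called window and 20.7% of a window that was not called.

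**Figure D3:**
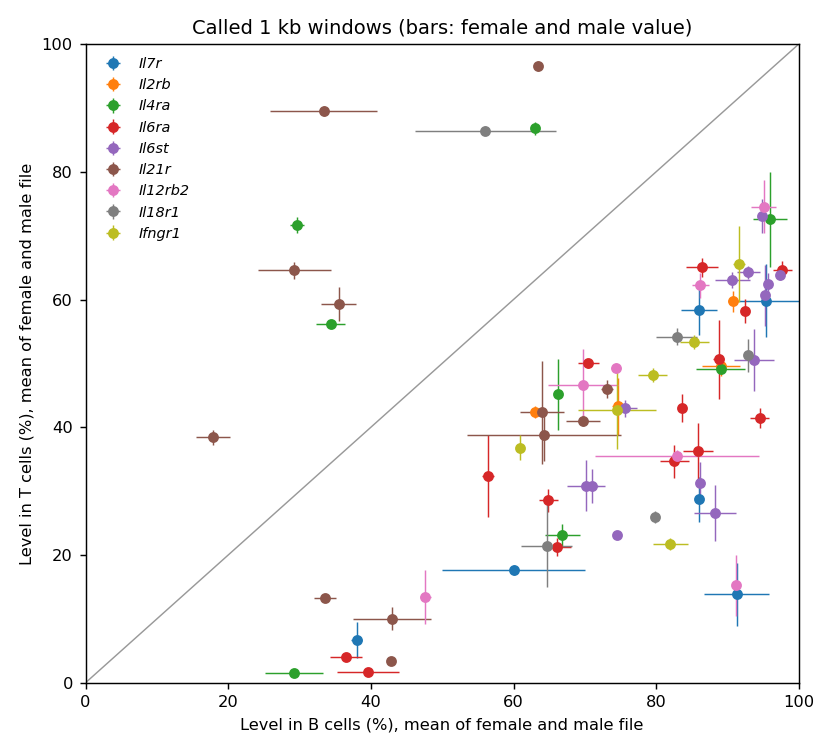
Methylation level (%) of the 75 called windows in T cells against B cells, each point the mean of the female and male file and each bar their 2 values, coloured by gene. The 66 windows higher in B cells lie under the diagonal, 32 of them at or over 80% in both B cell files and 11 at or under 20% in both T cell files, and 9 windows lie above it.

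Il7r held 6 called windows of 38, all higher in B cells. The leading one (chr15:9525001-9526000, 4676 bp into the gene, centred in intron 1 beside exon 2) had 6 CpGs and was at 86.8% in female and 95.8% in male B cells and at 8.93% and 18.8% in T cells. Its difference of 77.4 points was the largest among the 477 windows (adjusted p = 1.65e-31). The next window, in intron 2, was at 86.4% and 85.5% in B cells and at 25.2% and 32.2% in T cells. A window of 3 CpGs in intron 1 was at 70% and 50% in B cells and at 18.4% and 16.9% in T cells. A window 3324 bp upstream of the start, named after its values were seen, was at 37.2% and 38.8% in B cells and at 3.85% and 9.59% in T cells.

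Il4ra and Il21r, which are neighbours on chromosome 7, differed in both directions. Il4ra held 8 called windows of 47, with 5 higher and 3 lower in B cells. In intron 1, 2380 bp into the gene, the level was 69.3% and 64.4% in B cells and 21.4% and 24.9% in T cells (43.7 points, adjusted p = 1.99e-43). Another window of intron 1 was at 33.3% and 25.2% in B cells and at 1.88% and 1.30% in T cells. Toward the 3′ end the order turned. The window that covers intron 10 and the start of exon 11 was at 28.7% and 30.6% in B cells and at 72.8% and 70.3% in T cells, and 3 kb farther in exon 11 the order turned back, with 92.5% and 85.6% in B cells and 49.0% and 49.3% in T cells. The remaining windows lower in B cells lay in intron 4 (62.9% and 63.1% in B cells, 87.8% and 85.8% in T cells) and 9620 bp upstream, where the level was 36.4% and 32.3% in B cells and 56.8% and 55.5% in T cells. Without the male B cell file the difference of that last window was -19.7 points, short of the threshold.

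Il21r held 12 called windows of 51, with 7 higher and 5 lower in B cells. A run of 3 windows upstream of the gene (chr7:125597001-125600000, 35 CpGs) was at 37.5% in female and 31.6% in male B cells and at 64.9% and 73.5% in T cells. Its leading window was at 40.9% and 25.9% in B cells and at 88.8% and 90.3% in T cells, which is -56.1 points as B minus T (adjusted p = 5.34e-38). The window beside it was at 63.0% and 64.0% in B cells and at 95.8% and 97.3% in T cells. Downstream of the start, within intron 1, a window was at 42.5% and 43.0% in B cells and at 4.04% and 2.88% in T cells. The next window of intron 1 was at 48.4% and 37.5% in B cells and at 11.8% and 8.19% in T cells. An exonic window at the 3′ end was at 72.2% and 67.3% in B cells and at 41.9% and 40.2% in T cells. Another window lower in B cells lay in intron 3, with 24.1% and 34.5% in B cells and 63.2% and 65.9% in T cells.

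The chains of the IL-6 receptor held the largest numbers of called windows, 14 of 67 in Il6ra and 13 of 65 in Il6st, all higher in B cells. In Il6ra they concentrated near the 3′ end. A run of 4 windows over exonic sequence and intron 9 was at 54.9% and 52.4% in B cells and at 24.7% and 29.9% in T cells, and a run of 3 windows within intron 9 was at 93.9% and 94.4% in B cells and at 56.7% and 50.6% in T cells. The leading window of Il6ra (chr3:89875001-89876000, intron 9) was at 93.2% and 95.8% in B cells and at 42.9% and 39.9% in T cells. A pair of windows in intron 1 had levels of 87.9% and 83.8%, and of 80.5% and 84.6%, in B cells, and of 40.7% and 31.8%, and of 37.3% and 32.0%, in T cells. In Il6st, 5 adjacent windows around the internal start of Il6st-205 (chr13:112466001-112471000, 60 CpGs) formed the longest element among the members. It was at 89.5% in female and 88.7% in male B cells and at 38.0% and 41.6% in T cells. Its leading window was at 91.3% and 85.3% in B cells and at 22.3% and 30.9% in T cells (61.7 points, adjusted p = 4.05e-69). The window before it was at 85.6% and 86.5% in B cells and at 28.0% and 34.5% in T cells. A window near the internal start of Il6st-201 was at 74.6% and 74.4% in B cells and at 23.6% and 22.8% in T cells. A pair of windows in exons near the 3′ end was at 69.3% and 71.7% in B cells and at 31.8% and 29.5% in T cells.

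Il12rb2 held 7 called windows of 85, the lowest share among the members (8.24%), all higher in B cells. Its leading window, in intron 12, was at 91.0% and 91.3% in B cells and at 10.5% and 20% in T cells, a difference of 75.9 points (adjusted p = 3.20e-50). A window in intron 7 was at 94.4% and 71.4% in B cells and at 36.4% and 34.6% in T cells, and another, also in intron 7, was at 48.5% and 46.9% in B cells and at 9.23% and 17.6% in T cells. Ifngr1 held 6 called windows of 37, all higher in B cells. Its leading window, in intron 2, was at 84.5% and 79.5% in B cells and at 20.7% and 22.6% in T cells (60.3 points, adjusted p = 6.04e-70). A window of 4 CpGs in intron 1 was at 69.0% and 80% in B cells and at 36.7% and 48.7% in T cells, and it was not called without the male B cell file (adjusted p = 0.185). Another window of intron 1 was at 81.6% and 77.4% in B cells and at 49.3% and 47.1% in T cells.

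Il18r1 held 5 called windows of 51. The leading one, in intron 3, was at 79.3% and 80.3% in B cells and at 25.0% and 27.0% in T cells, and the window before it was at 61.1% and 68.2% in B cells and at 27.9% and 15.04% in T cells. A window of 16 CpGs in intron 2 was at 92.5% and 93.3% in B cells and at 48.6% and 53.9% in T cells. A window upstream of the gene, named after its values were seen, was at 80% and 85.7% in B cells and at 55.5% and 52.9% in T cells and lies within the neighbouring gene Il1rl1. The 1 window of Il18r1 that was lower in B cells had 3 CpGs and was at 66.0% and 46.2% in B cells and at 85.7% and 87.2% in T cells. Its call was lost without the female T (adjusted p = 0.0618), the male B (0.277) or the male T cell file (0.121), and with Fisher's exact test in each sex. Il2rb held 4 called windows of 36, all higher in B cells. Its leading window lay 7229 bp upstream (chr15:78502001-78503000, 23 CpGs) and was at 91.8% and 86.4% in B cells and at 51.1% and 48.1% in T cells (39.5 points, adjusted p = 1.59e-55). A window beyond the 3′ end was at 90.1% and 91.5% in B cells and at 61.3% and 58.1% in T cells, and the window over the start was at 73.8% and 75.4% in B cells and at 38.9% and 47.7% in T cells.

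**Figure D4:**
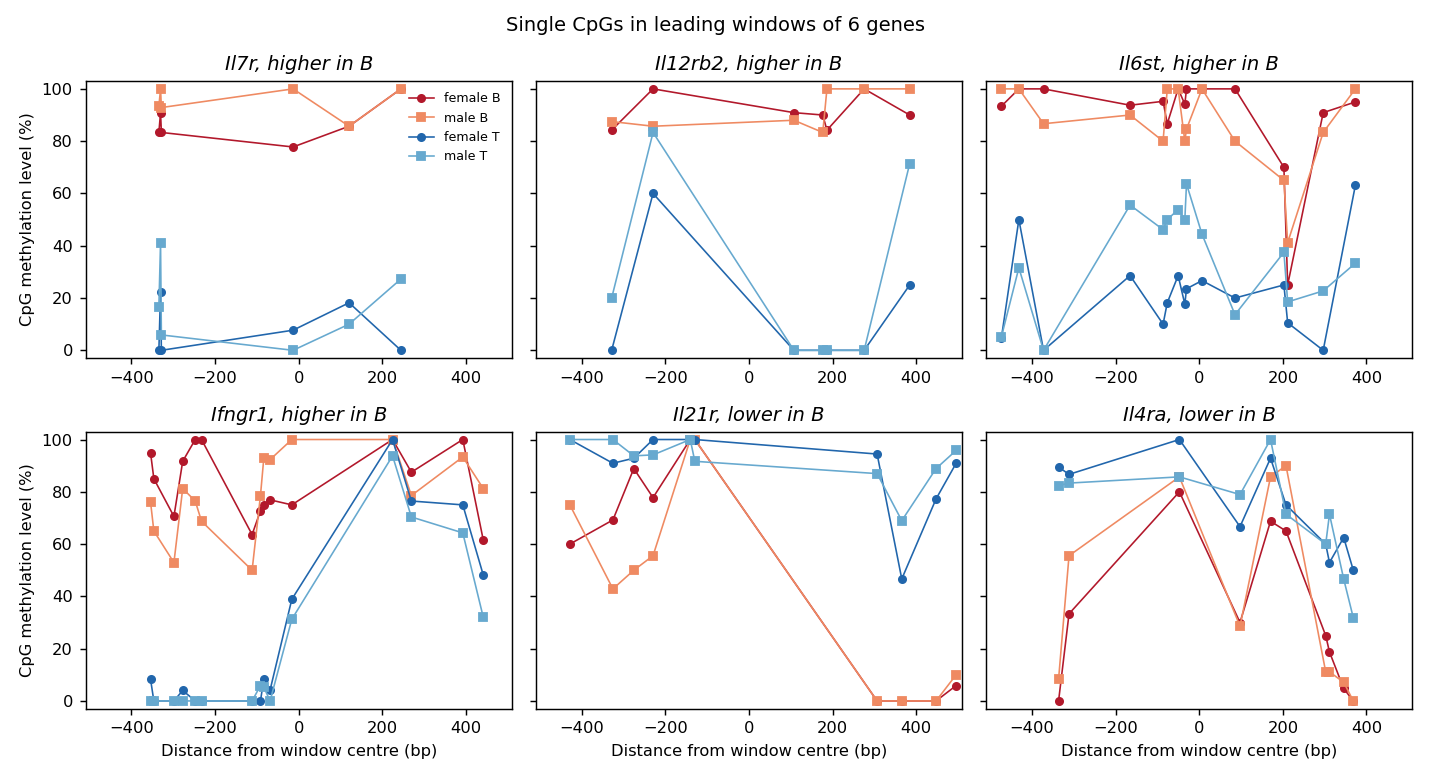
Methylation level (%) of single CpGs in the 4 files, by distance from the window centre (bp), in leading windows of 6 genes; lines join the CpGs of a file. In Il7r, Il12rb2 and Il6st every CpG is higher in both B cell files (6, 7 and 15 CpGs), in Ifngr1 14 of 15 are, and in Il21r and Il4ra 8 of 10 are lower in both B cell files. In the leading windows not drawn, 13 of 16 (Il6ra), 15 of 23 (Il2rb) and 3 of 4 (Il18r1) are higher in both B cell files. The windows were chosen by their difference, so these counts only describe them.

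The windows near the gene starts were also described by the extent of the unmethylated stretch there, a measure added after the windows had been seen. The stretch was taken as the CpGs around the start at which a running level over 5 CpGs stayed under 50%. It was found in all 4 files for 8 members, and in 7 of these it ended farther downstream in both T cell files than in both B cell files, where 13.0% of 13597 protein-coding genes showed this. In 4 members (Il7r, Il4ra, Il21r, Il6ra) the gap was 1000 bp or more, where it was so in 1.40% of genes. The stretch of Il7r ended 2755 and 2767 bp downstream of the start in B cells and 6475 bp downstream in both T cell files. That of Il4ra ended at 1851 and 1713 bp in B cells and at 5266 and 5394 bp in T cells. That of Il6ra ended at 852 and 731 bp in B cells and at 2388 and 2459 bp in T cells. The part beyond the B cell end was not highly methylated throughout in B cells. The 1 kb window centred 1696 bp into Il6ra was at 24.4% and 12% in B cells and at 8.65% and 7.92% in T cells. The window centred 3380 bp into Il4ra was at 8.28% and 13.8% in B cells and at 1.48% and 3.01% in T cells. In Il21r the stretch under 50% differed at both ends. Beyond the B cell end downstream, however, levels in B cells were again under 50%. The windows centred 1071 and 2071 bp into Il21r were at 42.5% and 43.0%, and at 48.4% and 37.5%, in B cells. In T cells they were at 4.04% and 2.88%, and at 11.8% and 8.19%. The place of that B cell end therefore depends on the cut. At 50%, the Il21r stretch of B cells ran from 1929 (female) or 1727 bp (male) upstream to 342 bp downstream. In both T cell files it ran from 346 bp upstream to 5392 bp downstream. With the level set at 40% or 60%, all 7 kept an end farther downstream in both T cell files (12.6% and 13.3% of all genes showed it). With 9 CpGs per running level 6 of the 7 did (not Il6ra, 14.7% of all genes), and with 3 CpGs 5 did (not Il21r or Ifngr1, 11.2%). The number with a gap of 1000 bp or more depended on these choices. It was 2 genes at 40% (Il7r and Il21r, 1.16% of all genes) and 3 at 60% (Il7r, Il4ra and Ifngr1, 1.67%). With 3 CpGs it was 2 (Il7r and Il6ra, 1.13%), and with 9 CpGs 3 (Il7r, Il4ra and Il21r, 1.60%). Il7r was the 1 gene among them in all 4 settings. In 5 of the 7 genes (Il7r, Il4ra, Il21r, Ifngr1 and Il6st) the part between the B and T ends overlapped 11 of the 75 called windows, so these ends use the same CpGs and are no separate evidence. In Il6ra and Il12rb2 it overlapped none.

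**Figure D5:**
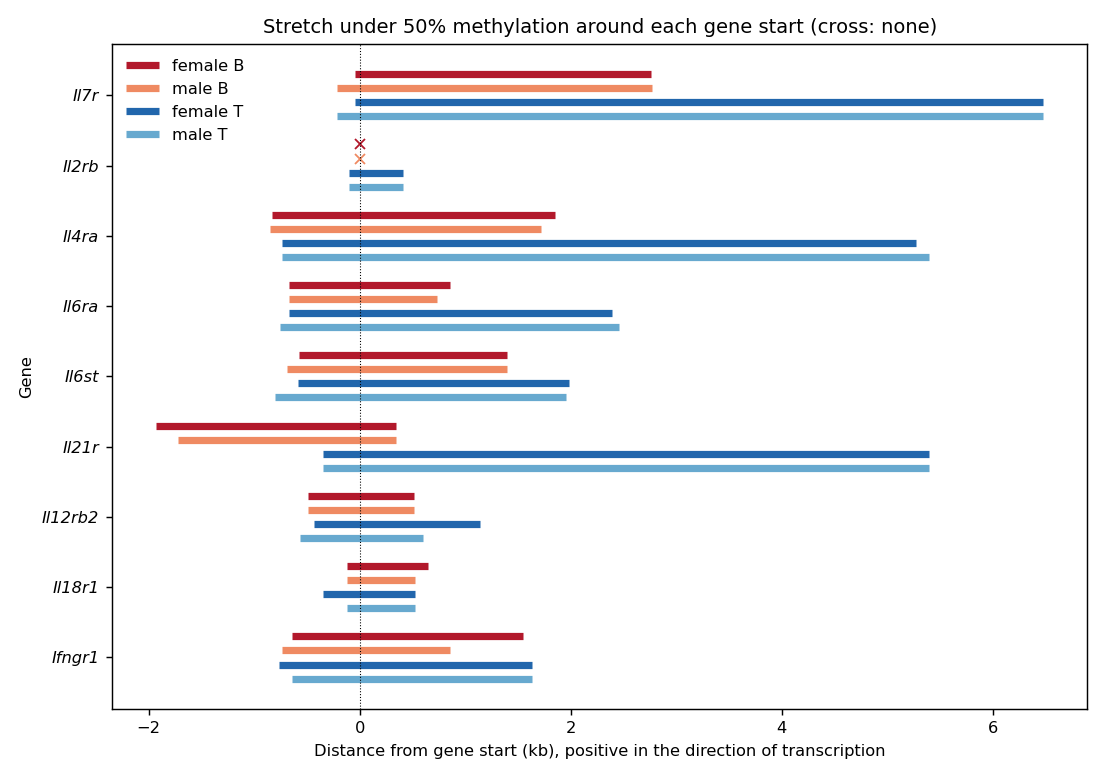
Extent of the stretch under 50% methylation around each gene start (kb from the start, positive in the direction of transcription), with 1 bar per file. The T cell bars of Il7r, Il4ra, Il21r and Il6ra end at least 1000 bp beyond the B cell bars. Those of Il6st, Il12rb2 and Ifngr1 end at least 563, 84 and 88 bp beyond them, and those of Il18r1 do not end beyond them. Il2rb has a stretch of 515 and 513 bp in T cells and none of any length in B cells.

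Il2rb was the exception in having no stretch of measurable length in B cells. The running level at its start was 50.8% in female and 47.1% in male B cells, and 1.10% and 4.55% in T cells, where the stretch covered 515 and 513 bp. For Il6st the ends lay at 1393 bp in both B cell files and at 1985 and 1956 bp in T cells. For Il12rb2 they lay at 513 bp in both B cell files and at 1137 and 597 bp in T cells, and for Ifngr1 at 1548 and 857 bp in B cells and at 1636 bp in both T cell files. Il18r1 showed no such order, with 645 and 524 bp in B cells and 524 bp in both T cell files.

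Averaged over a whole gene and its margins the differences were small, and no member was called, where 0.0925% of all gene regions were. Il6ra had the largest difference, at 69.1% and 70.2% in B cells and 57.4% and 56.4% in T cells (12.7 points). Its adjusted p was 0.0433 and its size lay under the 20-point threshold. Il6st was at 78.5% and 80.4% in B cells and at 70.8% and 69.9% in T cells (9.12 points, adjusted p = 0.0679). Il21r, with windows in both directions, was at 56.6% and 55.8% in B cells and at 57.2% and 55.7% in T cells. The region was higher in B cells in both sexes for 8 of 9 members, as for 39.1% of all gene regions, and the median difference was 5.60 points against 0.441. With sex as the tested term, none of the 477 windows was called (36 had an unadjusted p under 0.05, and the lowest adjusted p was 0.472), where 0.00108% of autosomal windows were, so this count is near the background.

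Other genes of the pathways were counted in the same fits. Of 41 further genes listed with the cytokine receptors, 3 promoters were called, where 0.896% of all promoters were. A called window was held by 35 of the 41 genes, where 47.6% of protein-coding genes held 1 or more. Of their 2257 windows, 180 (7.98%) were called, 113 higher and 67 lower in B cells. The called promoters were those of Il9r, a receptor chain for IL-9 (62.6% and 56.3% in B cells, 15.7% and 18.01% in T cells), Il1r2, a decoy receptor for IL-1 (71.6% and 56.7% in B cells, 88.3% and 91.9% in T cells), and Ebi3, which encodes a soluble chain of the cytokines IL-27 and IL-35 and not a receptor (38.5% and 37.6% in B cells, 61.7% and 58.2% in T cells). Of 27 genes for JAK kinases, STAT factors and their inhibitors, no promoter was called and 23 held a called window. Of their 1734 windows, 127 (7.32%) were called, 91 higher and 36 lower in B cells. Of 17 genes for the ligands of the 9 receptors, the promoters of Il12a and Ifng were called. Il12a was at 23.5% and 22.3% in B cells and at 46.8% and 44.6% in T cells. Ifng was at 83.8% and 86.3% in B cells and at 57.2% and 61.4% in T cells. A called window was held by 10 of the 17, with 21 of 522 windows (4.02%) called, 7 higher and 14 lower in B cells. The window shares are set beside the 15.7% of the 9 receptor genes and the 2.78% of windows within all protein-coding genes and their margins, with no test between lists. In the lists a window near several genes counts for each, and counted so, 2.83% were called over all protein-coding genes. The lists are also not separate from the 9 genes, since the called Il18r1 window within Il1rl1 counts in both.

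Motifs named for lymphocyte factor families were searched on both strands of the windows. TTCNNNGAA, the core spaced as STAT factors bind it, was in 31.8% of the 66 member windows called higher in B cells and in 31.4% of all windows tested. The RUNX core TGTGGT was in 48.5% of the former and in 53.6% of the latter. The FOXO core TGTTTAC was in 15.2% and 14.1%. The GATA core AGATAA was in 39.4% and 48.4%. Over all 477 member windows the shares were 27.9% (STAT), 58.3% (RUNX), 15.5% (FOXO) and 41.7% (GATA). These shares were not tested against each other. Among the printed sequences, TTCNNNGAA was found once, at base 173 of the Ifngr1 sequence, and TGTGGT once, at base 31 of the Il4ra sequence.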

How the data were processed

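Whole-genome bisulfite libraries of 8 samples were used, with 1 deposited file per group of 2. Per the deposited files, each CpG had a methylation level as a fraction and a count of covering reads. The submitters' processing notes name Trim Galore, FastQC, Bismark 0.13.1 and mm10, without settings. In the deposited files strands were merged and every CpG had 5 or more reads. Duplicate removal and conversion rates are not given in the sources used here.

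Whole numbers of methylated reads were obtained from fraction and count by rounding, and every entry lay within 0.0011 of a whole read number over the count. Positions counted from 0 were shifted by 1 and all lay on CpGs of GRCm38. Autosomal reads numbered 278275973 to 339923001 per file. Reads were summed over CpGs of a promoter, window or gene region (3 or more CpGs) and entered quasi-binomial logistic regression on cell type and sex, leaving 1 residual degree of freedom. Dispersions were squeezed with squeezeVar of limma 3.58.1 (R 4.3.3), with the prior taken from features with at least 5 expected methylated and unmethylated reads per file, and p-values were adjusted over all features by Benjamini-Hochberg. Intervals are 95% Wilson and cover counting error only. They rest on counts summed over CpGs, so they are too narrow where a read covers several CpGs.

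The members, lists and thresholds were chosen with earlier results of these data known. Named windows were the top 3 per gene and direction, ranked by whichever of the 2 sex-specific differences was smaller, plus elements of adjacent windows and upstream windows of Il7r and Il18r1, which were chosen after their values were seen. Named genes outside the 9 were listed genes with a called promoter, and Lyz2, Klrb1c and Foxp3 were added after their values were seen. Stretches at gene starts and motifs were added after seeing the data. limma on log2 ratios (pseudocount of 1), Fisher's exact test, other depths, thresholds, window sizes and margins, and omission of each file were alternatives. Fits with a file omitted had no sex term.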

Additional observations from a re-analysis of the deposited data

Results flagged for a closer look

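At the Il18r1 promoter the B and T difference had opposite signs in the sexes. In females the level was 27.5% in B cells and 16.0% in T cells, and in males it was 23.9% and 24.7%, so that the female difference exceeded the male difference by 12.4 points. At the Il21r gene region the signs were also opposite, with 56.6% in B cells and 57.2% in T cells of females, but 55.8% in B cells and 55.7% in T cells of males, a gap of -0.695 points between the sexes. Neither difference between the sexes was tested.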

How the results depend on the processing

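Of the 9 promoters, 1 was called. The number was 0 with 10 reads per CpG, with a threshold of 30 points, with limma and without the sex term (0.484% to 1.02% of all promoters), and 2 genes with every transcript start. The Il2rb call was also lost whichever single file was left out. Those fits drop the sex term as well and leave 1 file in a cell type. No gene region was called, and 1 was with a threshold of 10 points (0.375% of all regions). Windows called numbered 75 (66 higher and 9 lower in B cells). With the share of all windows called beside each, they were 36 (34 and 2) in 2000 bp windows (1.40%), 118 (100 and 18) in 500 bp windows (2.75%), 123 (106 and 17) at 10 points (4.22%), 48 (43 and 5) at 30 points (1.04%), and 38 (35 and 3) with limma on log2 ratios, where 7.97% of member windows and 1.02% of all windows were called. Within gene bodies alone 4 were lower in B cells, all among the 250 windows with their midpoint in an intron, of which 35 were higher. Over all windows 0.914% were lower and 1.17% higher in B cells. With a single file left out, 1 cell type rests on 1 file and the sex term is dropped. Not all of the 75 stayed called in those fits. Fisher's exact test in each sex kept 64 of the 75, where 1.75% of all windows were called. No window called changed sign under any alternative on the same windows, omissions included. All 9 members kept a called window throughout. Uncalled means changed sign at Il21r (-3.44 points with 10 reads, -0.195 within 500 bp), Il6ra (-0.454), Il4ra (1.08) and Ifngr1 (-0.0788 within 500 bp of the start). The Il21r gene region did so in the gene body alone (3.04) and ranged from -1.02 to 0.516 with single files left out, being positive without the female T or the male B cell file (0.168). The causes were not tested. Depth and the single file per group limit the precision. No paired analysis was possible because the groups share no replicate numbers.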
